A study of Mus musculus with 24 samples.

Results

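The genes described here are 10 markers of Kupffer cells, the macrophages that reside in the liver, and of other resident tissue macrophages: Folr2, C1qa, C1qb, C1qc, Clec4f, Vsig4, Cd5l, Marco, Timd4 and Cd163. They were taken as the probe sets of the deposited table that name exactly 1 of the listed genes. Each gene had 1 such probe set, so the set holds 10 genes of the 19505 named genes measured. Expression was followed on 24 single-colour arrays, 1 array per sample, from ICR-CD1 mice, an outbred strain, whose grandfathers were either controls or obese. The samples formed 6 groups of 4. Material labelled as whole embryo was taken on embryonic day 7.5 (ED7.5), with 4 control and 4 SL arrays, and on embryonic day 14.5 (ED14.5), with 4 and 4. Liver was taken on postnatal day 7.5 (PD7.5), again with 4 and 4. SL is the submitters' name for the arm with obese grandfathers. The labels do not spell it out, nor do they say whether the 4 samples of a group are from different litters, so p-values measure only the spread between these samples, which may be technical.

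Macrophages first reach the embryo from the yolk sac and later from precursors that mature in the fetal liver, and those that settle along the liver sinusoids become Kupffer cells. There they take up bacteria, complement-coated particles, dying cells and worn red cells, and return the iron of red cells to the circulation. Their identity is acquired in steps under transcription factors such as PU.1 (the product of Spi1), Spi-C (Spic), Id3 and the liver X receptor (Nr1h3), so that markers shared by most macrophages and markers particular to Kupffer cells need not appear together. C1q, the first component of the classical complement pathway, is built from A, B and C chains made mainly by macrophages, each from its own gene. In samples of whole tissue, fewer macrophages and less RNA per macrophage cannot be told apart.

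The stretches before the start sites of 4 genes are shown because these genes had the largest rises on the control arrays, Cd5l and Marco between ED7.5 and ED14.5, Vsig4 between ED14.5 and the liver, and Clec4f over both intervals. They are the 250 bases before the start site, from RefSeq's annotation of GRCm38.p6, written 5′ to 3′ on the gene's strand. Capitals mark the letters GAGGAA or GGAAGT on either strand (TTCCTC or ACTTCC when read on the other), purine-rich cores of the kind PU.1 and other ETS factors bind.
Cd5l (chr3:87357631-87357880, plus strand): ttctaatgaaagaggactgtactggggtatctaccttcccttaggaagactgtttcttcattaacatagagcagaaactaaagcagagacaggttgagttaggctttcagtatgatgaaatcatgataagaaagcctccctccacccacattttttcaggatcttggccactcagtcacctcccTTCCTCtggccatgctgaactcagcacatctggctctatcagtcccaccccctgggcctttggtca
Marco (chr1:120505025-120505274, minus strand): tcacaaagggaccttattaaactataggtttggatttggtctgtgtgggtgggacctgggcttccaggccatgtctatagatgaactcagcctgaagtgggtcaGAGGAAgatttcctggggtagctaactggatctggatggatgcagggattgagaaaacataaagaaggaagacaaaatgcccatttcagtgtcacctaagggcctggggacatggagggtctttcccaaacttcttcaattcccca
Clec4f (chr6:83656117-83656366, minus strand): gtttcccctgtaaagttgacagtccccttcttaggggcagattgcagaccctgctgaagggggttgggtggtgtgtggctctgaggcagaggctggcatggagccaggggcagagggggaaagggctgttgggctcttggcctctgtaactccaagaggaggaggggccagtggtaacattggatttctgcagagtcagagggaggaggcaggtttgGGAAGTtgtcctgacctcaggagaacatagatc
Vsig4 (chrX:96293439-96293688, minus strand): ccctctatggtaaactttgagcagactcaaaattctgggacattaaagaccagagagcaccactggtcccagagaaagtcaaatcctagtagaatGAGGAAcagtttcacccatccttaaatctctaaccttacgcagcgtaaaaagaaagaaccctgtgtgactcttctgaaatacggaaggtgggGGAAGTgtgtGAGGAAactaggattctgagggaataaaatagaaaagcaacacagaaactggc
GAGGAA began 66 bases before the start site in Cd5l and 146 bases before it in Marco. In Vsig4 it began 155 and 53 bases before the start site, with GGAAGT beginning 63 bases before it. In Clec4f GGAAGT began 33 bases before the start site. Of the 10 genes, 9 had an entry in the table used, C1qa being the gene without one, and Folr2 had 2 start sites, which gave 10 windows. GAGGAA lay in 5 of the 10 windows against 23.3% of all 32851 promoter windows of this length, and GGAAGT in 6 of 10 against 19.7%. Either lay in 8 of 10 windows against 36.7%, and the pair overlapped in C1qc. TGCTGA, a half-site of the kind MAF factors bind, lay in 6 of 10 windows, against 16.1% of all. Such matches describe the letters and show no binding.

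The values are log2 expression as deposited. Median log2 values per array over the named genes ran from 6.31 to 6.61. The background of an array, the 75th percentile of its 5222 intron control probes, ran from 5.05 to 6.53 in log2, and the share of genes above it from 48.3% to 64.1%. The ED7.5 control replicate 2 had the highest background (6.53) and was the array whose exon controls stood out least from its intron controls (an exon control outshone an intron control in a share of 0.867 of pairs). The label of whole embryo was set against markers of other tissues. Of 9 measured genes of the decidua, the maternal lining around the implanted embryo, 8 lay above background on all 4 ED7.5 control arrays and 9 on all 4 ED7.5 SL arrays, with a mean summed linear level of 37620 in the control arrays, against 364 in the ED14.5 control arrays. The ED7.5 samples therefore held maternal RNA, and embryonic and maternal macrophages cannot be told apart in them. Of 10 hepatocyte genes, 8 lay above background on all 4 ED14.5 control arrays and none on all 4 ED7.5 control arrays.

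How many of the 10 markers could be seen depended on the age. On the ED7.5 arrays, 1 of 10, C1qb, lay above background on all 4 arrays, in control and in SL alike, while 6 in the control and 7 in the SL arrays were above it on none. On the ED14.5 arrays 7 of 10 lay above background on all 4 arrays of either arm, and Vsig4 and Cd163 on none. In the liver 9 of 10 did so in both arms, and Cd163 cleared the background on 3 of 4 arrays per arm. On single arrays 48.3% to 64.1% of all genes lay above this background. The counts hold for the 75th percentile. At the 90th percentile C1qb no longer cleared background on all 4 ED7.5 control arrays (6.75 against 7.52 in replicate 2). At ED14.5 the same held for Clec4f and Timd4 in both arms and for C1qa in the SL arm. In the liver it held for Folr2 in the SL arm.

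**Figure D1:**
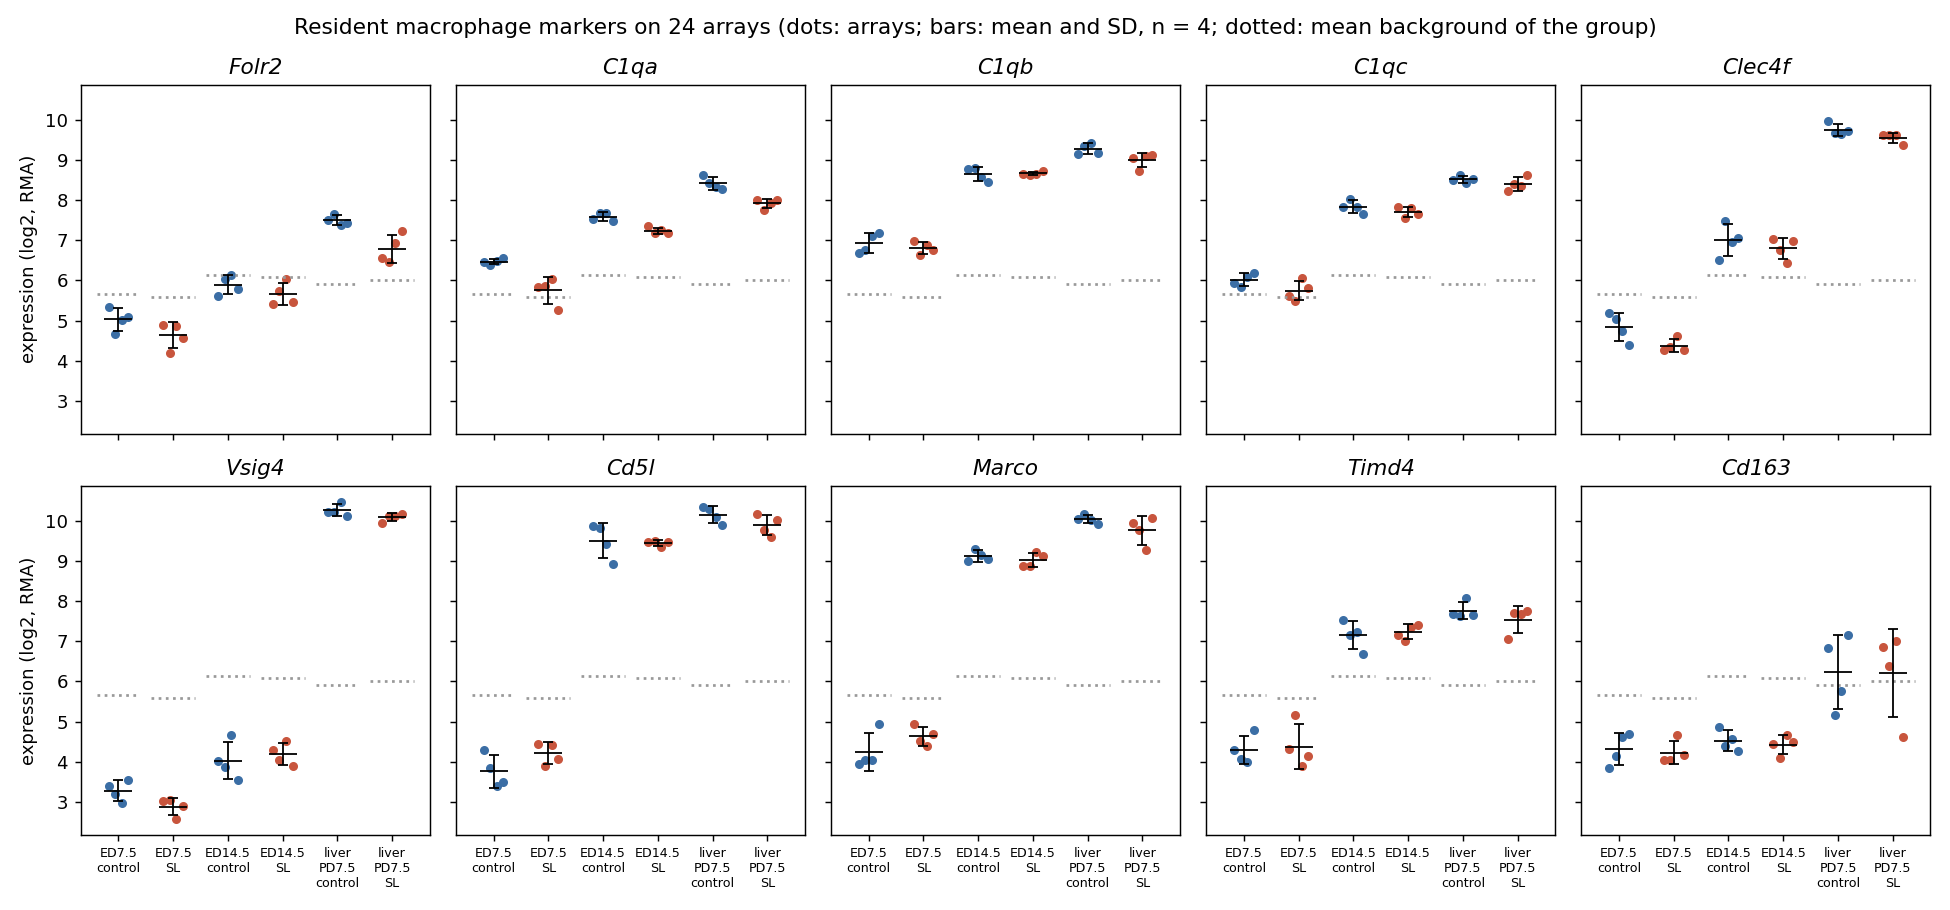
Log2 expression of the 10 markers on the 24 arrays, by group on the horizontal axis. Dots are single arrays (blue control, red SL), bars are the mean and SD of 4 arrays, and dotted lines are the mean background of the group's arrays. Cd5l, Marco and Timd4 lie under the background at ED7.5 and above it at ED14.5, whereas Vsig4 lies above it in the liver groups alone.

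The C1q chains had the most arrays with signal at the earliest age, C1qb being above background on 4 of 4 ED7.5 control arrays and C1qa and C1qc on 3 of 4. On the control arrays C1qa read 6.45, 6.38, 6.49 and 6.55 in log2 at ED7.5, then 7.52, 7.66, 7.68 and 7.47 at ED14.5, and 8.63, 8.43, 8.33 and 8.27 in the liver. C1qb read 6.69, 6.75, 7.11 and 7.18 at ED7.5, 8.77, 8.79, 8.58 and 8.44 at ED14.5, and 9.13, 9.34, 9.43 and 9.18 in the liver. C1qc read 5.95, 5.83, 6.09 and 6.19 at ED7.5, 7.82, 8.03, 7.82 and 7.64 at ED14.5, and 8.49, 8.63, 8.42 and 8.52 in the liver. For each of these 3 chains every array of a later age lay above every array of the age before it, as in 24.5% of all genes for the first interval and 19.6% for the second. The 3 genes lie next to each other on chromosome 4 of GRCm38.p6, C1qb at 136880126 to 136886200, C1qc at 136889801 to 136892936 and C1qa at 136895916 to 136898844.

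Cd5l and Marco appeared between the 2 embryonic ages, and Cd163 did not. Cd5l, which encodes a protein secreted by tissue macrophages that binds lipids and microbes, read 4.30, 3.83, 3.41 and 3.50 on the ED7.5 control arrays and 9.87, 9.82, 9.41 and 8.92 on the ED14.5 control arrays. In the liver it read 10.34, 10.28, 10.09 and 9.89. Marco, a class A scavenger receptor for bacteria and particles, read 3.94, 4.05, 4.04 and 4.93 at ED7.5, 8.99, 9.31, 9.13 and 9.04 at ED14.5, and 10.03, 10.15, 10.02 and 9.92 in the liver. Both genes thus stood below background on all ED7.5 control arrays and far above it a week later. Cd163, the scavenger receptor that takes up haemoglobin bound to haptoglobin, had no array above background in any embryonic group. Its control livers read 6.84, 5.17, 5.76 and 7.16, the widest spread of the 10 markers within the control livers (SD 0.93), with 3 of 4 arrays above background.

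The receptors for dying cells, folate and complement followed different courses. Timd4, a receptor for the phosphatidylserine that dying cells expose, read 4.30, 4.08, 4.00 and 4.79 on the ED7.5 control arrays, 7.53, 7.15, 7.23 and 6.68 at ED14.5, and 7.67, 7.62, 8.07 and 7.65 in the liver. Folr2, a folate receptor of resident macrophages, read 5.34, 4.66, 5.01 and 5.09 at ED7.5, 5.62, 6.04, 6.13 and 5.79 at ED14.5, and 7.51, 7.66, 7.37 and 7.44 in the liver. Folr2 was above background on 2 of 4 control arrays at each embryonic age and on 4 of 4 in the liver. Vsig4, a receptor for complement C3b that lets Kupffer cells catch circulating bacteria, read 3.40, 3.21, 2.97 and 3.56 at ED7.5 and 4.02, 3.88, 4.66 and 3.55 at ED14.5, all under background. In the control livers it read 10.22, 10.21, 10.47 and 10.12. Clec4f, a lectin known in the mouse as a marker of Kupffer cells, read 5.18, 5.03, 4.74 and 4.40 at ED7.5, 6.51, 7.48, 6.96 and 7.04 at ED14.5, and 9.96, 9.67, 9.63 and 9.71 in the liver. Clec4f was thus under background on all 4 ED7.5 control arrays, intermediate at ED14.5 and highest in the liver, without overlap between the ages.

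Between ED7.5 and ED14.5, 9 of the 10 markers rose on the control arrays, where 25.6% of all genes rose, and none fell (limma's moderated test, p-values adjusted by Benjamini-Hochberg over all 19505 genes, threshold 0.05). The median difference of the 10 was 1.77 in log2, against 0.03 over all genes. The ED7.5 samples held decidua RNA, with a mean summed linear level of 37620 on the control arrays against 364 at ED14.5. Age and the tissue sampled therefore change together over this interval and cannot be told apart. The largest rises were those of Cd5l, by 5.74 (SE 0.25, adjusted p = 2.37e-08), and Marco, by 4.88 (SE 0.21, adjusted p = 2.16e-08). Since the ED7.5 arrays lay at or below background, these correspond to at least 14.4-fold for Cd5l and at least 11.1-fold for Marco when background is put in place of the earlier level. Timd4 rose by 2.85 (SE 0.21, at least 2.82-fold) and Clec4f by 2.16 (SE 0.22, at least 2.55-fold). The C1q chains rose by 1.12 (C1qa, 2.17-fold), 1.71 (C1qb, 3.28-fold) and 1.82 (C1qc, 3.52-fold), and Folr2 rose by 0.87 (adjusted p = 0.00138). Folr2 cleared background on 2 of 4 control arrays at each of these ages, and its mean lay below the mean background at both. Vsig4 passed the test with a difference of 0.74 (adjusted p = 0.0182) although all 8 arrays lay under background, so no fold is given. Without the ED7.5 control replicate 3 its adjusted p was 0.0543, in a range of 0.00146 to 0.0543 over 14 alternatives. Cd163 differed by 0.20 (95% interval from -0.26 to 0.66, adjusted p = 0.448), with both groups under background.

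From ED14.5 to the PD7.5 liver, 10 of 10 markers rose on the control arrays, where 20.5% of all genes rose. The 2 groups did not overlap for any of the 10, which held in the same direction for 19.6% of all genes, and the median difference was 0.87 against -0.02 over all genes. Here, too, age and tissue change together and cannot be told apart. The rise of Vsig4 was 6.23 in log2, or at least 17.4-fold (SE 0.21, adjusted p = 2.92e-08). Clec4f rose by 2.74 (SE 0.19, 6.69-fold), Cd163 by 1.71 (at least 1.07-fold, SE 0.39) and Folr2 by 1.60 (SE 0.14), with 2 of its 4 ED14.5 control arrays above background. Marco rose by 0.92, Cd5l by 0.65 and Timd4 by 0.61. The C1q chains rose by 0.83 (C1qa), 0.68 (C1qc) and 0.63 (C1qb). The calls of Cd5l and Timd4 depended on single arrays. That of Cd5l (adjusted p = 0.0315) was lost without the ED14.5 control replicate 3 or 4 or without liver control replicate 1, 2 or 3, with adjusted p from 0.0514 to 0.0791. That of Timd4 (adjusted p = 0.0238) was lost without the ED14.5 control replicate 2 or 4 or liver control replicate 3, with adjusted p from 0.0503 to 0.0607.

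The SL arrays, none of which entered those comparisons, showed a similar order. Between ED7.5 and ED14.5, 9 of 10 markers rose, against 26.4% of all genes, with a median of 1.91. Cd5l rose by 5.24 (at least 14.4-fold), Marco by 4.39 (at least 10.7-fold) and Timd4 by 2.86 (at least 3.11-fold). Clec4f rose by 2.42 (at least 2.30-fold), Folr2 by 1.03 (at least 1.04-fold) and the C1q chains by 1.49 (C1qa), 1.86 (C1qb) and 1.95 (C1qc). Vsig4 passed with a difference of 1.31 (adjusted p = 6.28e-05) although both groups lay at or below background, and Cd163 was the member that did not pass (adjusted p = 0.38). From ED14.5 to the liver 8 of 10 rose, against 21.4% of all genes, with a median of 0.72. Vsig4 rose by 5.89 (at least 15.9-fold), Clec4f by 2.75 and Cd163 by 1.79 (at least 1.09-fold). Folr2 rose by 1.13, with 1 of its 4 ED14.5 SL arrays above background. Marco rose by 0.74, C1qc by 0.70 and C1qa by 0.68. C1qb differed by 0.33 (adjusted p = 0.05, which did not pass). It passed under 7 of 15 alternatives, and over all 15 its adjusted p ran from 0.0116 to 0.111. Among the 7, the fit on the mean over a gene's probe sets also had an adjusted p that rounds to 0.05. Timd4 differed by 0.31 (adjusted p = 0.198) and passed without liver SL replicate 1 (adjusted p = 0.0219, in a range up to 0.388). The call of Cd5l, a rise of 0.44 (adjusted p = 0.0278), was lost under 6 of 15 alternatives, with a highest adjusted p of 0.077. These were the fit of all 24 arrays and the fits without ED14.5 SL replicate 2, 3 or 4 or liver SL replicate 1 or 4. No difference in these rises between the arms passed its test for any of the 10 markers (0.0769% of all genes between ED7.5 and ED14.5, 0.0256% between ED14.5 and the liver).

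**Figure D2:**
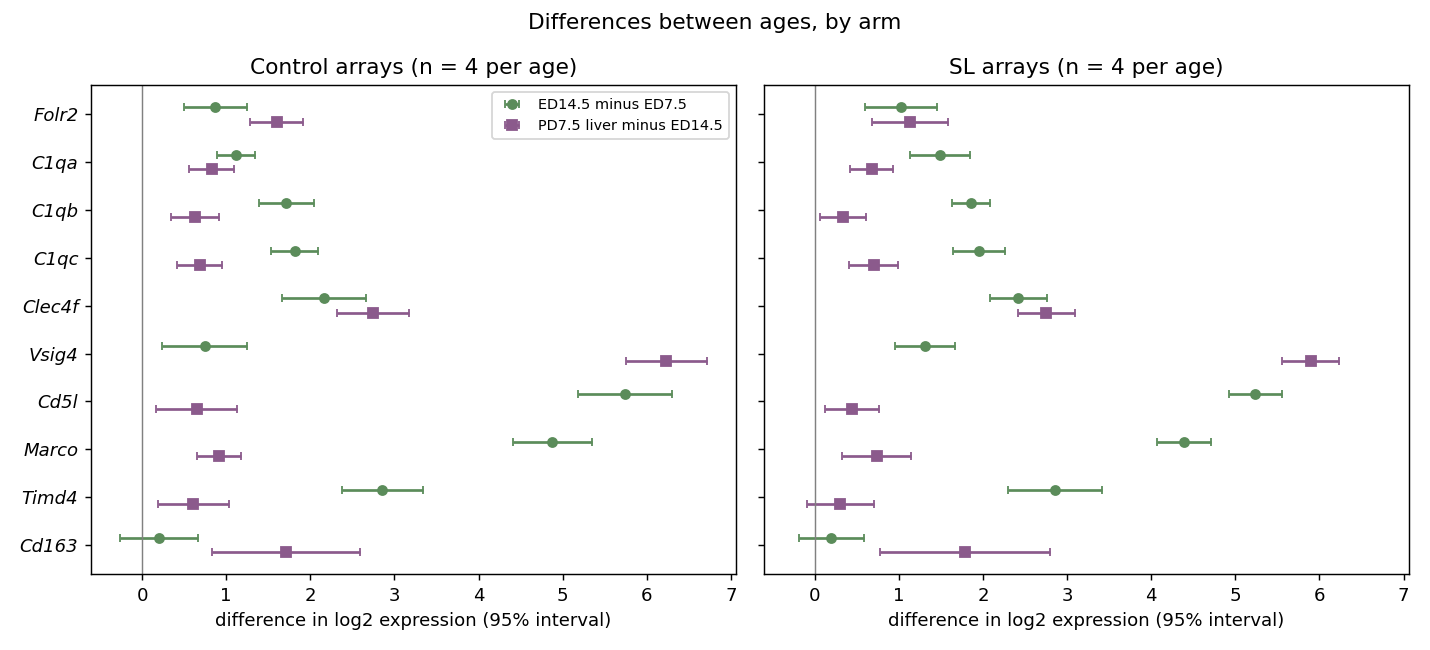
Differences in log2 expression between ages for the 10 markers, with 95% intervals from limma, in the control arrays (left) and the SL arrays (right), 4 arrays per age. Circles are ED14.5 minus ED7.5 and squares are PD7.5 liver minus ED14.5. Cd5l and Marco have their large difference at the first interval (5.74 and 4.88 on the control arrays) and Vsig4 at the second (6.23).

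Genes that most macrophages share did not all follow the same course. Csf1r, the receptor for the macrophage growth factors CSF1 and IL-34, was at 10.42 ± 0.19 (SD, n = 4) on the ED7.5 control arrays, 9.12 ± 0.23 at ED14.5 and 10.03 ± 0.07 in the liver, a fall by 1.31 and then a rise by 0.91, both past the threshold. Adgre1, which encodes the F4/80 antigen, rose by 2.48 from 6.06 ± 0.09 to 8.53 ± 0.33 and was at 8.82 ± 0.17 in the liver (a difference of 0.29, adjusted p = 0.217). Lyz2, the lysozyme of macrophages and neutrophils, was at 8.18 ± 0.57, 8.86 ± 0.08 and 9.68 ± 0.24 and rose over both intervals. At ED7.5, 8 of 15 measured general macrophage genes lay above background on all 4 control arrays, while 6 of the 10 resident markers did on none. Which cells of these samples, which held decidua RNA, the general transcripts came from was not tested. Of 15 measured general macrophage genes 7 rose and 2 fell between ED7.5 and ED14.5 (median 0.40). Over all genes 25.6% rose and 26.3% fell. Besides Adgre1, the largest rises were those of the mannose receptor Mrc1 (1.83) and the actin-binding Aif1 (1.60), and Cd14, a coreceptor for bacterial lipopolysaccharide, fell by 2.76 and Ms4a7 by 1.40. From ED14.5 to the liver 10 of 15 rose and none fell (median 0.65), led by Mrc1 (1.64), the protease Ctss (1.37) and the oxidase subunit Cybb (1.14). Over all genes 20.5% rose and 24.6% fell in this interval.

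Among 14 measured lineage regulators and growth factors, 5 rose and 6 fell on the control arrays between ED7.5 and ED14.5 (median -0.11). The shares over all genes were 25.6% and 26.3%, and from ED14.5 to the liver 20.5% and 24.6%. Spic, the regulator of iron-recycling macrophages, rose by 4.67 (at least 7.03-fold), Tfec by 3.01 (at least 4.52-fold) and Spi1 by 1.61, while Id3 fell by 1.75 and Id1 by 1.55. From ED14.5 to the liver 8 rose and 2 fell (median 0.42): Rxra, the partner of the liver X receptor, rose by 1.89, Maf by 1.44 and Nr1h3 by 1.36, and Spic fell by 0.50 and Id1 by 0.48. Spi1 differed by 0.18 over this interval (adjusted p = 0.351). Hepatocytes and endothelium also express several of these regulators, and which cells they came from was not tested.

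Of 14 genes of engulfment and iron recycling, 6 rose and 5 fell between the embryonic ages (median 0.21). Over all genes 25.6% rose and 26.3% fell between these ages, and 20.5% rose and 24.6% fell from ED14.5 to the liver. The iron exporter Slc40a1 rose by 4.59, the prostaglandin-degrading Hpgd by 3.00 and the transferrin receptor Tfrc by 2.92, whereas the bridging ligands of dying cells Pros1 and Gas6 fell by 2.62 and 1.55 and the scavenging receptor Lrp1 by 1.42. From ED14.5 to the liver 8 rose and 2 fell (median 0.55): Hpgd rose by 2.28, Gas6 by 2.16 and Lrp1 by 1.90, and Tfrc fell by 1.44 and the haem oxygenase Hmox1 by 0.59. The erythroid list, 6 measured genes, had a mean summed linear level of 267 on the ED7.5 control arrays, 21840 at ED14.5 and 4761 in the control livers, and its part in the values of Slc40a1 and Tfrc was not tested. Of 24 complement genes other than C1q, most of them made by hepatocytes, 15 rose and 6 fell between the embryonic ages (median 1.33). Cfi rose by 6.46 (at least 20.9-fold), Hc by 6.01 (at least 8.18-fold) and Mbl1 by 4.39 (at least 5.50-fold), and Serping1, C7 and Cd93 fell by 2.23, 2.07 and 2.03. From ED14.5 to the liver 21 of 24 rose and none fell (median 2.04), led by Mbl2 (5.21), C4b (4.91) and C4bp (4.61). The C1q chains rose over both intervals.

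The other comparison was between grandoffspring of obese and of control grandfathers at each age. In the liver none of the 10 markers passed the threshold, and none of the 19505 genes did (0% called, smallest adjusted p 0.509, with 7.91% of genes at an unadjusted p below 0.05). All 10 markers had a lower mean in the SL livers, where 49.3% of all genes did, and the median difference of the 10 was -0.24 against 0.00 over all genes. In 4 of the 10, Folr2, C1qa, C1qb and Clec4f, all SL arrays lay below all control arrays, which held for 2.30% of all genes. The markers share cells and arrays, so 10 lower means are not 10 independent observations.

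Folr2 had the largest difference of the 10. Its SL livers read 6.55, 6.47, 6.93 and 7.22, all below the lowest control liver at 7.37. The SL mean was lower by 0.71 (SE 0.18, 95% interval from -1.11 to -0.30, unadjusted p = 0.00319, limma adjusted p = 0.516). For C1qa the SL livers read 8.001, 7.75, 7.92 and 7.99, against control livers from 8.27 upwards. Its difference was -0.50 (SE 0.13, 95% interval from -0.79 to -0.21, unadjusted p = 0.00373, adjusted p = 0.516). Under 15 alternatives the adjusted p ran from 0.106 to 0.658 for Folr2 and from 0.0984 to 0.658 for C1qa, so that neither passed under any of them. C1qb read 9.04, 8.72, 9.10 and 9.11 in the SL livers, just under the control values (difference -0.28, interval from -0.59 to 0.04), and Clec4f read 9.61, 9.62, 9.61 and 9.36 (difference -0.19, interval from -0.49 to 0.10).

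The other 6 markers overlapped between the arms in the liver. Marco differed by -0.28, Cd5l by -0.26, Timd4 by -0.22, Vsig4 by -0.17 and C1qc by -0.11, each with an interval that includes 0. The sizes of these differences rested in part on single arrays. Without SL replicate 3 Marco differed by -0.11 and Cd5l by -0.17. Without SL replicate 1 Timd4 differed by -0.05 and C1qc by -0.05, and without SL replicate 4 C1qc differed by -0.19. Without control replicate 3 Timd4 differed by -0.11 and Vsig4 by -0.10. Cd163 differed by -0.02 with an interval from -1.32 to 1.27, because its arrays ran from 4.62 to 6.998 in the SL livers and from 5.17 to 7.16 in the control livers. Over 15 alternatives this difference of Cd163 ran from -0.37 to 0.51. For the abundant markers the intervals still allow sizeable falls: that of Vsig4 ran from -0.45 to 0.12, and that of Cd5l from -0.64 to 0.11.

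**Figure D3:**
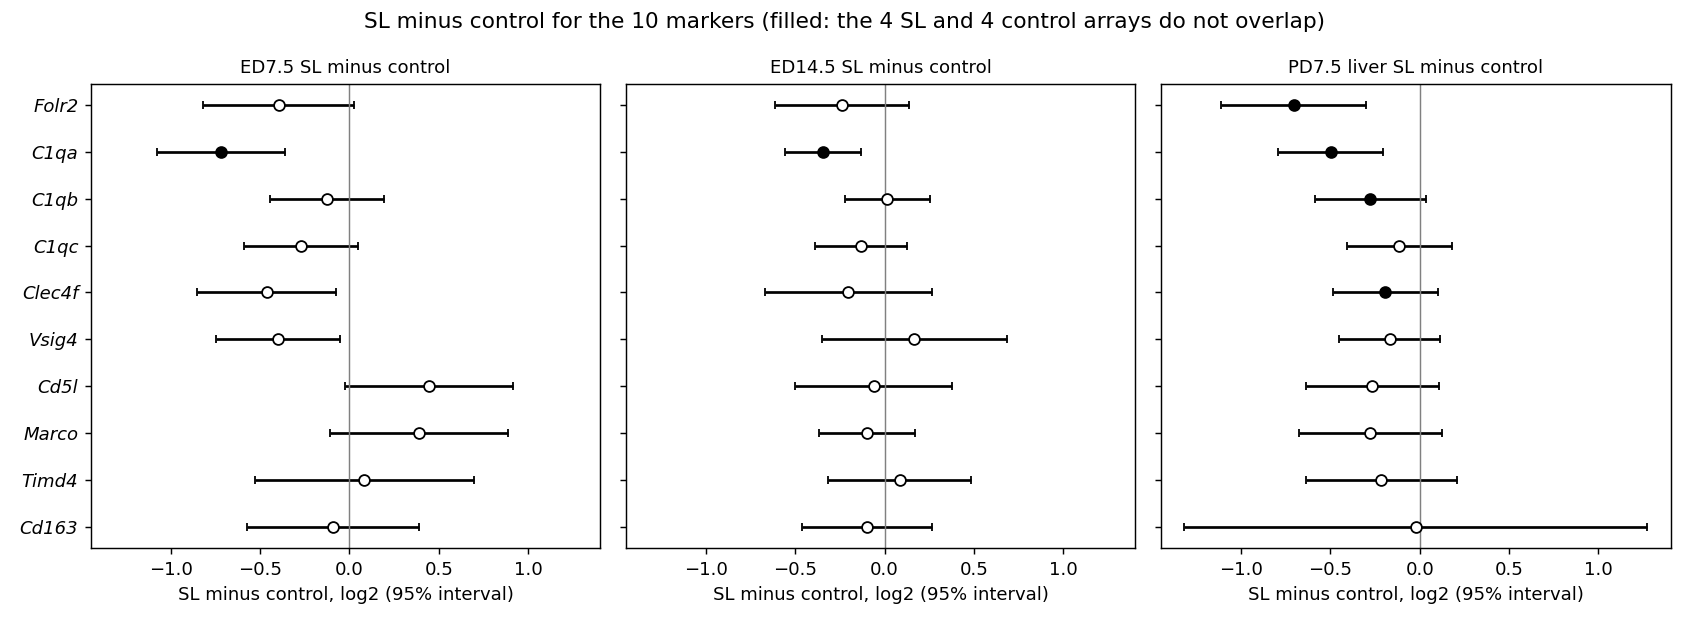
SL minus control in log2 for the 10 markers at ED7.5 (left), ED14.5 (middle) and in the PD7.5 liver (right), with 95% intervals from limma, n = 4 per arm. Filled circles mark genes whose 4 SL and 4 control arrays do not overlap. C1qa is filled in all 3 panels, with differences of -0.72, -0.35 and -0.50.

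Other measures of the liver arrays stand beside these values. Exon controls outshone intron controls in a mean share of 0.913 of pairs on the control livers and 0.902 on the SL livers (exact two-sided permutation p = 0.0286, the smallest that 4 against 4 arrays allow). With any 1 SL liver array left out this p was 0.0571, and with all arrays it was 0.743 at ED7.5 and 0.886 at ED14.5. Of 11 neutrophil and precursor genes 10 had a higher mean in the SL livers (median 0.37), with a summed linear level from 4379 to 7646 in control and from 6996 to 8080 in SL livers. All 6 erythroid genes had a lower mean (median -0.55), with a summed level from 3868 to 6526 in control and from 1834 to 5450 in SL livers. No gene of either list passed (smallest limma adjusted p 0.509 and 0.658), and the summed levels of the arms overlapped in both. The hepatocyte (median 0.02), sinusoidal endothelium (-0.04) and monocyte (-0.04) lists lay closer to 0. The part of these in the values of Folr2 and C1qa was not tested. Among 15 general macrophage genes 6 had a higher and 9 a lower mean in the SL livers (median -0.05). Cx3cr1, the fractalkine receptor of monocytes and of macrophage precursors, read 6.59, 6.84, 6.77 and 6.78 in the control livers, all above background, and 4.66, 6.06, 5.40 and 4.32 in the SL livers, all at or below it. The difference of -1.63, at least 1.65-fold lower, did not pass (unadjusted p = 0.000653, adjusted p = 0.509). Itgam, an integrin of monocytes, macrophages and neutrophils, was higher by 0.63 (adjusted p = 0.516). Csf1r, Adgre1 and Lyz2 differed by -0.20, 0.18 and 0.35, with adjusted p from 0.628 to 0.828.

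In the other lists no gene passed in the liver. Of 14 lineage regulators 10 had a lower mean (median -0.09), with the smallest p-values for Id3 (-0.36) and Id1 (-0.38). Engulfment and iron recycling genes split 7 and 7 (median -0.02), Hmox1 (-0.39) and the phagosomal metal transporter Slc11a1 (-0.26) having the smallest p-values. Of 24 complement genes 15 had a higher mean (median 0.05). The receptor C5ar1 differed by -0.53 (at least 1.06-fold lower, adjusted p = 0.581), without overlap, and C9 by 0.45 (adjusted p = 0.609). C5ar1 was above background on none of the SL livers.

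At ED14.5 none of the 10 markers passed, with 0.0513% of all genes called (11.4% at an unadjusted p below 0.05). C1qa had the smallest p of the 10. Its SL arrays read 7.34, 7.18, 7.24 and 7.19, all below the lowest control array at 7.47, a separation in this direction that 4.27% of all genes had. The difference was -0.35 (SE 0.09, 95% interval from -0.56 to -0.13, unadjusted p = 0.00489, adjusted p = 0.23, from 0.0769 to 0.409 over 15 alternatives). The C1qb arrays of the arms overlapped (difference 0.02, interval from -0.22 to 0.25), as did those of C1qc (-0.13, interval from -0.39 to 0.13) and Folr2 (-0.24, interval from -0.61 to 0.14). Over the 10 markers 7 had a lower mean (50.0% of all genes) and the median was -0.10. The remaining 6 markers had differences from -0.20 (Clec4f) to 0.17 (Vsig4). No gene of the 4 macrophage and complement lists passed at this age. The smallest p-values belonged to Il34 (-0.33) and Nr1h3 (-0.39) among the regulators, Adgre1 (-0.32) and Ms4a7 (-0.27) among the general genes, Hpgd (-0.39) and Slc40a1 (-0.22) in engulfment, and C5ar1 (-0.47) and Mbl2 (0.40) in complement. Of these, Il34, Ms4a7 and C5ar1 lay at or below background in both arms.

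At ED7.5 again none of the 10 passed, with 0.00513% of all genes called (5.49% at an unadjusted p below 0.05). C1qa read 5.83, 5.87, 6.03 and 5.26 on the SL arrays, all below the lowest control array at 6.38, which held in this direction for 1.48% of all genes. The array at 5.26 was the lowest by some distance, and without this SL replicate 4 the difference was -0.56. With all arrays it was -0.72 (SE 0.16, 95% interval from -1.08 to -0.36, unadjusted p = 0.00122, adjusted p = 0.675). When all 24 arrays were fitted together, so that the 6 groups shared 1 estimate of the spread, the adjusted p was 0.0237 and C1qa passed. Over the 15 alternatives it ran from 0.0237 to 0.863, and without the ED7.5 control replicate 2, the array with the high background, it was 0.859 with a difference of -0.75. Of the 10 markers 7 had a lower mean in the SL arrays (49.5% of all genes) with a median of -0.20. C1qb differed by -0.12 and C1qc by -0.27, both with overlap. Folr2 differed by -0.40 (interval from -0.82 to 0.03, adjusted p = 0.913), with no SL array above background. The other 6 markers were under background on all 8 arrays, so their differences carry no fold: -0.46 for Clec4f, -0.40 for Vsig4, -0.09 for Cd163, 0.08 for Timd4, 0.39 for Marco and 0.45 for Cd5l, with adjusted p of 0.839 or more. In the lists, too, no gene passed. The smallest p-values were those of Spic (0.55) and Id3 (0.22), of Lyz2 (0.72) and Ms4a7 (-0.58, at least 1.13-fold lower), of Gas6 (0.46) and Slc40a1 (-0.30), and of C2 (-0.32) and C1s1 (0.46). Spic lay at or below background in both arms. Of 15 general macrophage genes 10 had a higher mean in the SL arrays (median 0.06), and the decidua list had a median of -0.05.

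C1qa was therefore the 1 marker whose arms did not overlap at any of the 3 ages. Across the 19505 genes it was also the 1 gene with all SL arrays below all control arrays at each age (0.00513%), and no gene had the opposite pattern at each age. The 3 comparisons share no array, but the labels do not say whether the ages share grandfathers, and no joint normalization run is stated. At ED7.5 C1qa was above background on 3 of 4 arrays per arm. Because C1qa was singled out after its values had been seen, this pattern and the following tests are descriptions and no independent evidence. Averaged over the 3 ages in a fit of all 24 arrays, SL was lower by 0.52 for C1qa (SE 0.07, unadjusted p = 4.09e-07, adjusted p = 0.00523), the smallest p of all genes, where 0.0256% of genes passed. The adjusted p stayed between 0.00146 and 0.0174 over 28 alternatives that kept all 3 ages. With 1 age left out the call was lost, with adjusted p of 0.052 without ED7.5, 0.161 without ED14.5 and 0.0746 without the liver, and differences of -0.42, -0.61 and -0.53. In the same fit Folr2 had an averaged difference of -0.45 (SE 0.11, adjusted p = 0.21), Clec4f of -0.29 (adjusted p = 0.419), C1qc of -0.17 (adjusted p = 0.496) and C1qb of -0.13 (adjusted p = 0.658), and the other 5 markers had adjusted p of 0.774 or more.

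**Figure D4:**
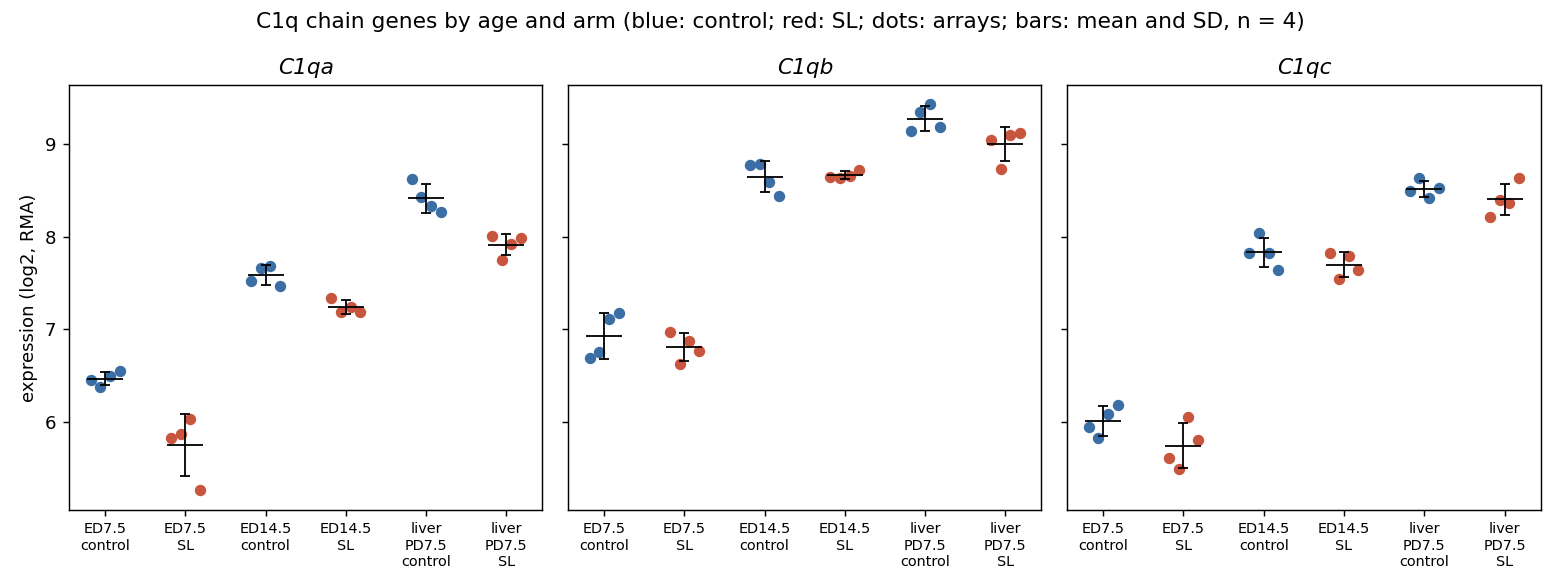
Log2 expression of the 3 C1q chain genes on the 24 arrays by age and arm. Dots are arrays, bars the mean and SD of 4 arrays. The red SL dots of C1qa lie below the blue control dots at each age, whereas those of C1qc overlap at each age and those of C1qb overlap at both embryonic ages.

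Since the A, B and C chains assemble into 1 protein, C1qa was also set against its neighbours within each array. C1qa minus C1qb was lower in SL by 0.60 in log2 at ED7.5, by 0.36 at ED14.5 and by 0.22 in the liver, and C1qa minus C1qc by 0.45, 0.21 and 0.39. The arms did not overlap for C1qa minus C1qb at ED7.5 and ED14.5 (exact two-sided permutation p = 0.0286 for each). The other 4 comparisons gave exact permutation p-values of 0.0571 to 0.0857. After adjustment over these 6 tests the p-values were 0.0685 to 0.0857, so none of them passed. Each chain was read by 1 probe set.

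The SL effect was not shown to differ between ages for any of the 10 markers. Of all genes, 0.0256% had a different SL effect in the liver than at ED14.5, 0.00513% in the liver than at ED7.5 and 0.0769% at ED14.5 than at ED7.5, and no marker was among them. For Folr2 the liver effect minus the ED14.5 effect was -0.47 (SE 0.27, adjusted p = 0.546). For C1qa this difference was -0.15 (interval from -0.53 to 0.22, adjusted p = 0.82), and its ED14.5 effect minus its ED7.5 effect was 0.37 (adjusted p = 0.72). The smallest unadjusted p-values between the liver and ED7.5 were those of Marco (-0.67, adjusted p = 0.468) and Cd5l (-0.71, adjusted p = 0.477), 2 genes under background at ED7.5.

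Genes with a profile like that of the markers were sought across all named genes. Over the 24 arrays, which fall apart by age, the mean standardized profile of the 9 markers other than Cd163 was matched most closely by F10 (Pearson r = 0.994), Sc5d (0.993), Gckr (0.993), F12 (0.993), Gjb1 (0.993) and Pdzk1 (0.992). Within the 8 liver arrays Folr2 was followed most closely by Tsc22d1 (r = 0.978), Timm17a (0.969), Srm (0.964), Olfr1178 (0.957), Abcg1 (0.954) and Keap1 (0.954). C1qa was followed by Ifi208 (0.975), Cdk2ap2 (0.968), Blvrb (0.949), Fgr (0.949), Dnajb2 (0.944) and Tpcn1 (0.941). These are descriptions over arrays that share groups, chosen as the highest of 19505 genes, and carry no test. Folr2 and C1qa followed each other with r = 0.406 within the liver arrays once the group means had been taken out.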

How the data were processed

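Expression was measured on 24 single-colour arrays in 6 groups of 4. The deposited log2 values were made by the authors with RMA in the oligo package, per the submitters' processing notes. Neither its version nor a joint run of all arrays is stated in the sources used. RMA corrects background, quantile-normalizes and summarizes probes, so levels are relative within the arrays run together. That the scale is log2 follows from RMA and from the range of values. No further normalization was applied.

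Of 29129 probe sets, 19572 named exactly 1 gene in the platform annotation. The brightest was used for 55 genes with several, which left 19505 genes, all tested. Where no array of a group rose above background, the fold is a lower bound, computed with background in place of that group's level. These bounds hold for background at the 75th percentile. They would be smaller at the 90th percentile, which ran from 5.92 to 7.52 on the ED7.5 control arrays. The number of arrays limits the precision.

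Groups were compared in limma (version 3.58.1, R 4.3.3, and the data.table package, 1.17.8) by linear models with moderated variances and two-sided p-values, adjusted by Benjamini-Hochberg over all genes and a threshold of 0.05, and the fit was tested on simulated data. Differences of SL effects were tested as interactions, with the 24 arrays in 1 model. Single values were compared by exact permutation over the 70 regroupings of 8 arrays. Figures and promoter searches used Python 3.11.15 with pandas 2.3.3 and matplotlib 3.10.9.

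The members, the 12 further gene lists and the tests were chosen with earlier results of these data known. All 10 members were tested in every comparison. From the 4 macrophage and complement lists up to 3 genes per direction past the threshold are named, or the 2 with the smallest p where none passed. The 6 closest profiles, Csf1r, Adgre1 and Lyz2 are also named. Of the genes the rule names, Cd68 was not analysed here. The averaged SL effect and the C1q differences were added after the values had been seen. Alternatives were array weights, an intensity trend with a robust prior, a replicate block, a fit of all 24 arrays, no genes at background on every array, quantile normalization within the comparison, the mean over a gene's probe sets, background at the 90th percentile and each array left out.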

Additional observations from a re-analysis of the deposited data

Results flagged for a closer look

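Of the 60 sets of 4 arrays that the 10 markers and 6 groups make, 5 held an array whose gap to its nearest neighbour exceeded Dixon's critical value for 4 values. Chance gives about 1 in 20 such sets. In the liver, Clec4f was 9.36 in SL replicate 4, below the other 3 SL livers. Timd4 was 8.07 in control replicate 3, above the other control livers, and 7.04 in SL replicate 1, below the other SL livers. At ED14.5 Cd5l was 9.33 in SL replicate 3, in a group that otherwise spread little. At ED7.5 Marco was 4.93 in control replicate 4, still under background. None of the 5 was a value of C1qa or Folr2.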

How the results depend on the processing

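The number of markers past the threshold was recomputed under 15 alternatives for each comparison of 2 groups. At ED7.5 SL against control it was 0, but 1 (C1qa) in the fit of all 24 arrays, which shares 1 estimate of the spread; it was 0 under every alternative at ED14.5 and in the liver. It ran from 8 to 9 for control and for SL ED14.5 minus ED7.5, from 8 to 10 for control liver minus ED14.5 and from 7 to 9 for SL liver minus ED14.5. For the SL effect averaged over the 3 ages it was 1 and fell to 0 with any age left out. No called difference changed its direction. The lower share of exon controls above intron controls in SL livers differed from that in control livers by -0.0134 to -0.00860 with each liver array left out in turn. Without an SL array (-0.0120 to -0.00955) the exact permutation p was 0.0571, and without a control array 0.0286.

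The deviations of arrays with the same replicate number correlated with r from -0.165 to 0.116. Arrays with different numbers were not set beside them, so whether the numbers mark pairs was not tested. With the replicate block 0 markers passed in each SL comparison, as without it, and with 0.544 the adjusted p of Folr2 and C1qa in the liver was close to that without it. Signal over background limits Cd163 at every age, and Vsig4 and Folr2 at both embryonic ages. At ED7.5 only C1qb was above background on all 4 arrays of each arm. C1qa and C1qc were above it on 3 of 4 arrays per arm, and 6 markers on none.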
